A study of Arabidopsis thaliana with 14 samples.

Results

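The late embryogenesis abundant (LEA) family of Arabidopsis thaliana was followed across seedlings with more or less activity of YODA (YDA), the MAP kinase kinase kinase of a cascade that holds back stomatal development. The members were 52 listed loci, among them M10, M17 and the dehydrins. Of these, 36 were measured, out of 22810 probe sets on the array. Each of the 36 had 1 probe set that the probe table gives to it and to no other gene, so no choice between probe sets was needed, and 27 passed the filter on low signal. The members were chosen by gene family after the rise of M10 in NdelYDA over Ler had been seen in these arrays, so the M10 values in NdelYDA are given as a description with no test.

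RNA of seedlings, all at 7 dpg by the labels, was measured on 14 arrays with 1 sample each. NdelYDA (4 arrays) carried a form of YDA lacking its N terminus, labelled NB89. The labels of 2 of these samples give the Ler ecotype and an absence of stomata. It was set against the Ler ecotype (3 arrays). The yda seedlings (4 arrays) have no ecotype or allele in their labels and were set against line CS9159 in the C24 ecotype (3 arrays), a pairing read from the design. The promoter that drives NdelYDA is not given in the sources used here. Mutant samples are described as biological replicates (1 only as a replicate), while the control samples carry only a number, so p-values rest on a spread between arrays that may in part be technical.

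LEA proteins are small, very hydrophilic and mostly unfolded in water, and many fold as they dry. They accumulate in the embryo during late seed maturation under abscisic acid and the seed regulators, and their transcripts normally decline as the seedling establishes. A second set of members is induced in leaves and roots by cold, drought or salt. The family is split here into 24 seed-type loci (16 measured, 12 tested), 13 cold- or drought-induced loci (7 measured and tested) and 15 other loci (13 measured, 8 tested). The classes were set from knowledge of the family, with earlier results of these data known.

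Values are probe set intensities on a linear scale, each array scaled to a trimmed mean of 500. The array's 30th percentile, which a probe set had to exceed on at least 3 arrays to be tested, lay between 75.1 and 85.75. Levels of different probe sets are not comparable, so each member is compared only with itself. The green tissue marker RCA (Rubisco activase) was high in all groups, at 10575 ± 521 in NdelYDA, 10674 ± 681 in Ler, 10998 ± 891 in yda and 11279 ± 1051 in C24 (SD, n = 4, 3, 4 and 3). In bulk seedling RNA, fewer cells of a type and less RNA per cell cannot be told apart. C24 replicate 1 stood apart from the other C24 arrays. Its GAPDH 3′ to 5′ signal ratio, an index of RNA integrity, was 1.46, against 1.12 and 1.02 in the other C24 arrays. The ratio was 0.79, 0.92, 0.80 and 0.95 in yda, lower than in every array of the other groups, and 0.99 to 1.21 in NdelYDA and 1.05 to 1.11 in Ler. Its part in the yda changes from C24 was not tested. Of the yda calls against C24 described below, those of AT2G44060, AT4G36600 and AT4G39130 were lost or not tested without C24 replicate 1, and the others were still made. That alternative is given beside many of the class counts and for some members, not for every value that C24 enters.

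M10 was above background only in NdelYDA. Its intensity was 316, 262, 302 and 311 in the NdelYDA arrays, against 3.3, 3.0 and 7.7 in Ler. It was 9.0, 5.5, 5.9 and 4.5 in yda, against 11.2, 6.8 and 8.2 in C24. Every array outside NdelYDA was therefore far below the 30th percentile, a range where signal cannot be told from background, and all 4 NdelYDA arrays were above it. The log2 change from Ler was 3.93 (SE 0.19) on the log2(intensity + 16) scale used throughout, which understates the change of a gene with low signal. M10 passed the filter only through its NdelYDA arrays. In yda the change from C24 was -0.15 (SE 0.19, limma adjusted p = 0.55).

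M17, another small transcript of the late embryo, changed in both mutants and in opposite directions. Its intensity was 1524, 1440, 1448 and 1600 in NdelYDA, against 348, 379 and 446 in Ler. In yda it was 156, 122, 177 and 109, against 1430, 639 and 345 in C24. All NdelYDA arrays were above all Ler arrays, and all yda arrays were below all C24 arrays. The log2 change was 1.91 in NdelYDA (SE 0.30, adjusted p = 0.00012) and -2.18 in yda (SE 0.30, adjusted p = 2.5e-05). C24 spread widely, and without C24 replicate 1 the yda change was -1.65 (adjusted p = 8.4e-06).

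**Figure D1:**
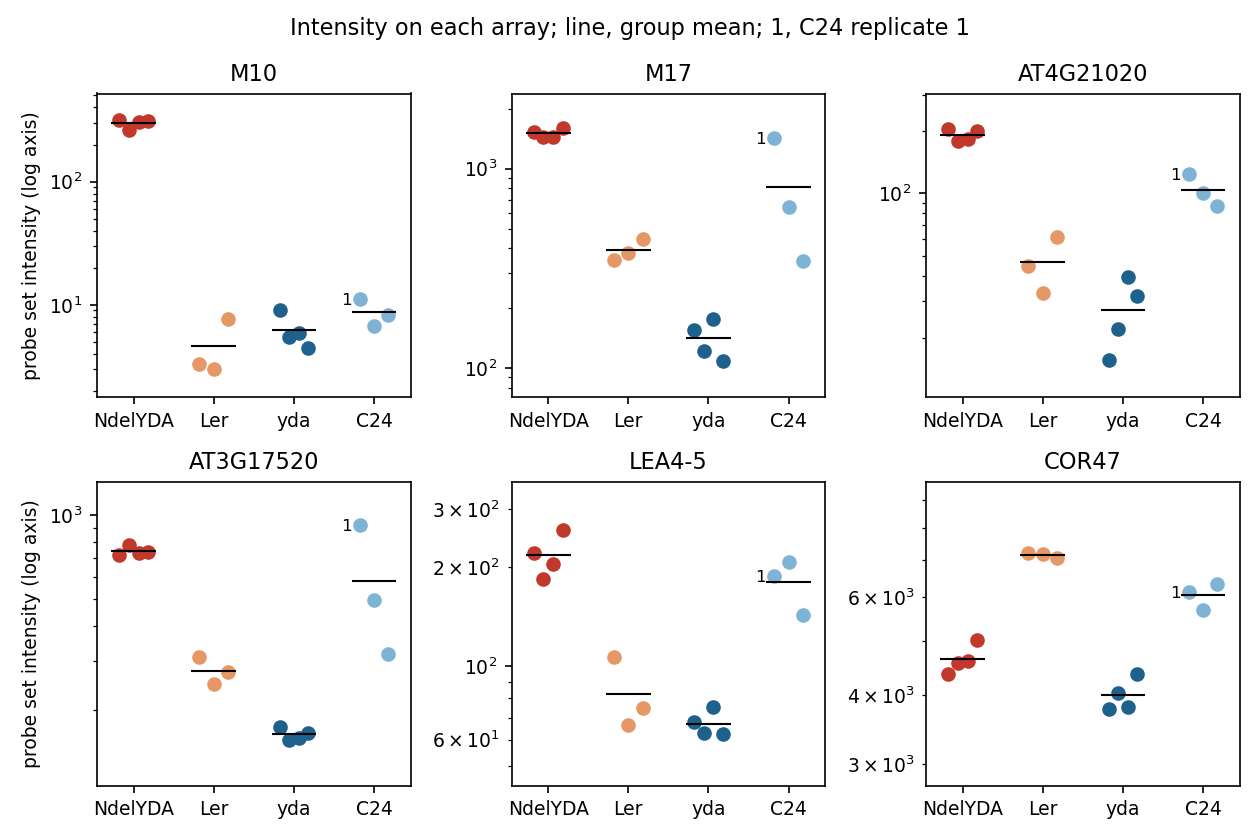
Probe set intensity (log axis) of M10, M17, AT4G21020, AT3G17520, LEA4-5 and COR47 on each array of NdelYDA, Ler, yda and C24; points are arrays, lines are group means and "1" marks C24 replicate 1. M10 is at 262 to 316 in NdelYDA and at 11.2 or below elsewhere, while COR47 is lower in NdelYDA than in Ler and lower in yda than in C24.

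Of the other 10 tested seed-type members, 9 were called higher in NdelYDA than in Ler. AT4G21020, a LEA_4 protein gene of the kind whose repeats form helices on drying, had 206, 179, 183 and 202 in NdelYDA, against 44.7, 32.8 and 61.5 in Ler. AT3G17520, also of LEA_4, had 720, 781, 732 and 740 in NdelYDA, against 311, 247 and 272 in Ler. AT3G53040 of the same group had 200, 226, 196 and 264, against 76.3, 66.9 and 51.1 in Ler. The NdelYDA arrays of all 3 genes were tightly grouped and clear of the Ler arrays. For AT4G21020 and AT3G53040 every Ler array was below the 30th percentile. AT3G53040 passed the filter only with the help of its NdelYDA arrays, so its test is a description. Their log2 changes were 1.77 for AT4G21020 (SE 0.20, adjusted p = 4.7e-06), 1.38 for AT3G17520 (SE 0.22, adjusted p = 0.00014) and 1.56 for AT3G53040 (SE 0.27, adjusted p = 0.00029).

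The rest of the seed-type calls were smaller rises. AT3G15670 of LEA_4 averaged 382 ± 44.3 in NdelYDA and 164 ± 18 in Ler (SD, n = 4 and 3), a log2 change of 1.14 (adjusted p = 6.4e-06). LEA18, a LEA_1 protein gene, averaged 505 ± 39.7 and 250 ± 63.6, and the LEA_1 gene AtLEA4-1 averaged 360 ± 15.5 and 204 ± 42.8. The seed dehydrin AT2G21490, named LEA in the gene table, averaged 93.4 ± 14.1 in NdelYDA and 39.6 ± 11.1 in Ler. AT2G42560 (105 ± 12.2 in NdelYDA and 44.7 ± 1.75 in Ler) and AT1G72100 (152 ± 10.2 and 82.5 ± 19.6), both of LEA_4, also rose. Their log2 changes were 0.99 for LEA18 (adjusted p = 0.0073), 0.79 for AtLEA4-1 (adjusted p = 0.0023), 0.99 for LEA (adjusted p = 0.0011), 0.99 for AT2G42560 (adjusted p = 0.022) and 0.79 for AT1G72100 (adjusted p = 0.015). AT4G36600, at 72.1 ± 7.69 in NdelYDA and 40 ± 5.26 in Ler, missed the threshold (0.65, adjusted p = 0.075), although its arrays did not overlap. The tests of AT2G42560, LEA and AT4G36600 are a description too, since these members passed the filter only with the help of NdelYDA arrays.

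Over all 27 tested members limma called 20 in NdelYDA, 15 of them higher, where it called 32% of all tested probe sets. Of the 12 tested seed-type members 11 were higher and none lower, against 15.4% of all tested probe sets called higher and 16.6% lower. The median log2 change of the 12 was 1.07, against -0.01 over all tested probe sets. This count includes M10, whose rise was known. The members AT2G42560, AT3G53040, AT4G36600 and LEA reached the minimum of 3 arrays for testing only with the help of their NdelYDA arrays, so the count over tested members is a description. With no filter, 12 of the 16 measured seed-type members were called higher and none lower, against 11.5% and 12.9% of all probe sets. That count is a description too, since it includes M10 and also AT5G44310, whose values are below the 30th percentile in both groups. The arrays of all 12 tested members did not overlap and lay higher in NdelYDA, against 21.1% of all tested probe sets. Some calls were lost when an array was left out. The call of AT2G42560 was lost without NdelYDA replicate 1 and without each Ler array (adjusted p between 0.052 and 0.064), with log2 changes of 0.95 to 1.01 against 0.99 with all arrays, that of AT1G72100 without Ler replicate 1 (0.62, adjusted p = 0.086) and that of LEA18 without Ler replicate 2 (0.78, adjusted p = 0.053).

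**Figure D2:**
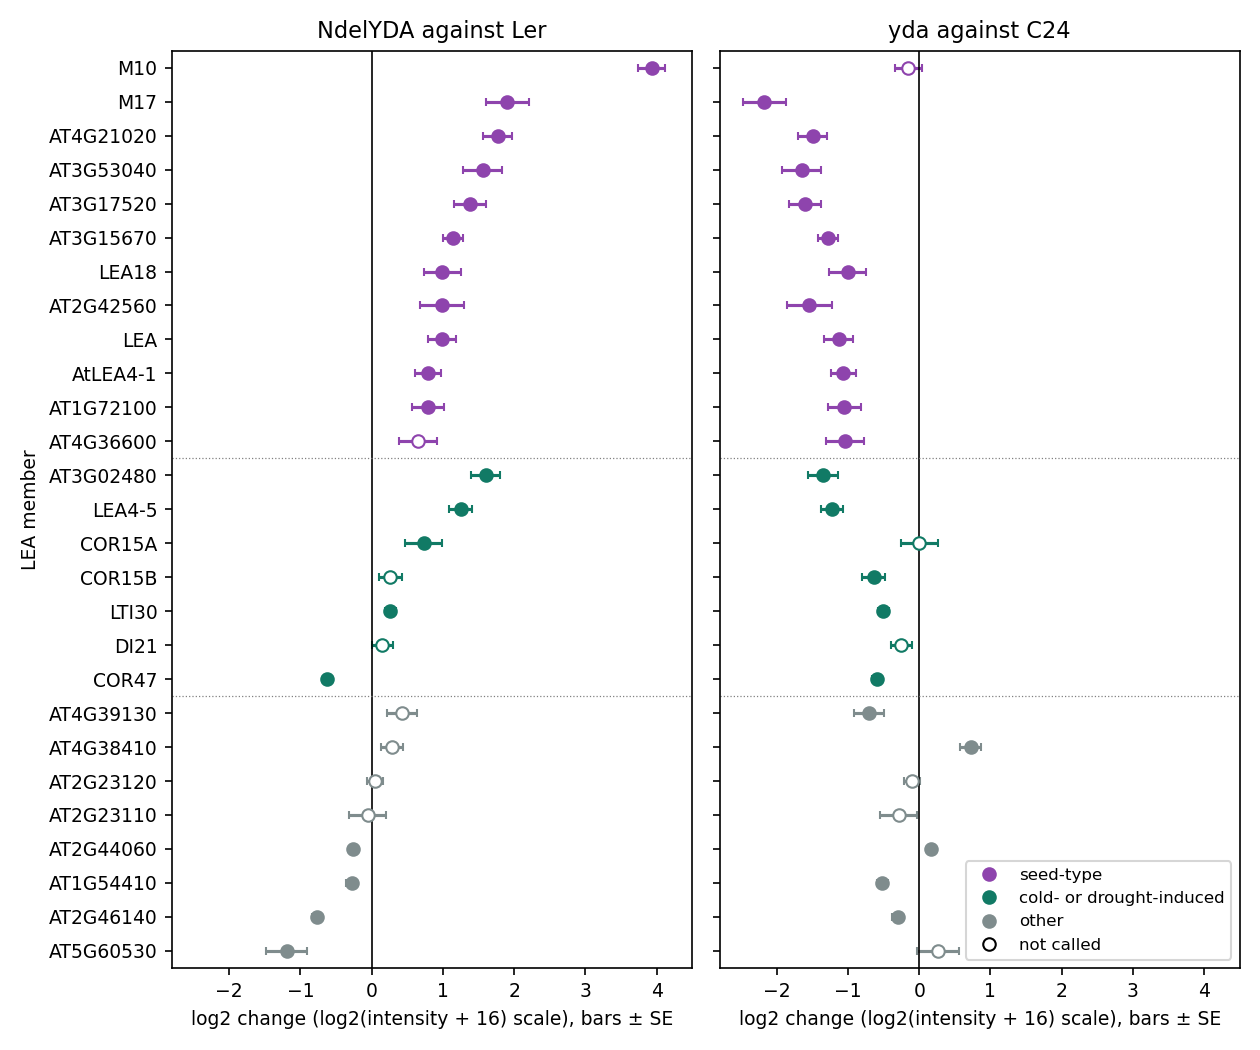
Log2 change of the 27 tested members in NdelYDA against Ler (left) and yda against C24 (right); points are fitted changes, bars ± SE, colours the 3 classes, and open points were not called. Seed-type members lie right of 0 on the left panel (0.65 to 3.93) and left of 0 on the right panel (-0.15 to -2.18).

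All tested seed-type members except M10 were called lower in yda than in C24. AT3G17520 had 173, 156, 158 and 166 in yda, against 926, 496 and 318 in C24. AT3G53040 had 36.3, 45.5, 35.2 and 39.6 in yda, against 294, 158 and 79.9 in C24. AT3G15670 had 136, 102, 146 and 141 in yda, against 394, 342 and 288 in C24. The yda arrays lay below every C24 array for each of these genes, but the C24 arrays differed more among themselves than the yda arrays did, except for AT3G15670, where C24 replicates stayed within 1.37-fold of each other. The log2 changes were -1.60 for AT3G17520 (SE 0.22, adjusted p = 2.4e-05), -1.65 for AT3G53040 (SE 0.27, adjusted p = 0.00013) and -1.28 for AT3G15670 (SE 0.14, adjusted p = 1.5e-06). Without C24 replicate 1 they were -1.21, -1.23 and -1.18, all still called.

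In yda limma called 21 of the 27 members, 19 of them lower, where it called 43.4% of all tested probe sets. Of the 12 tested seed-type members 11 were lower and none higher, against 24.4% and 19.1% of all tested probe sets. The median log2 change of the 12 was -1.21, against -0.03 over all tested probe sets. With no filter 12 of the 16 measured members were lower and none higher, against 18.3% and 14.5% of all probe sets. The call added there was AT5G44310, whose values are near or below the 30th percentile. AT4G21020 fell by 1.50 on the log2 scale and AT2G42560 by 1.54. Without C24 replicate 1 their changes were -1.37 and -1.12. The remaining calls fell by between 1.01 (LEA18) and 1.13 (LEA). M10, near background in both groups, was the member not called. The other 11 had yda arrays below every C24 array, against 23.2% of all tested probe sets.

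C24 replicate 1 was the highest C24 array for 11 of the 12 tested seed-type members and for 14 of the 16 measured. The ratio of the highest to the lowest C24 array ran from 1.37 (AT3G15670) to 4.14 (M17), whereas in NdelYDA no tested seed-type member exceeded a ratio of 1.4. Without C24 replicate 1, 10 of the 11 seed-type members then tested were still called lower in yda, against 22.9% of all probe sets tested in that fit, with a median log2 change of -1.12. AT4G36600 dropped below the filter in that fit. The change of LEA18, whose C24 values were 670, 263 and 227, was then -0.54 (adjusted p = 0.013) in place of -1.01.

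**Figure D3:**
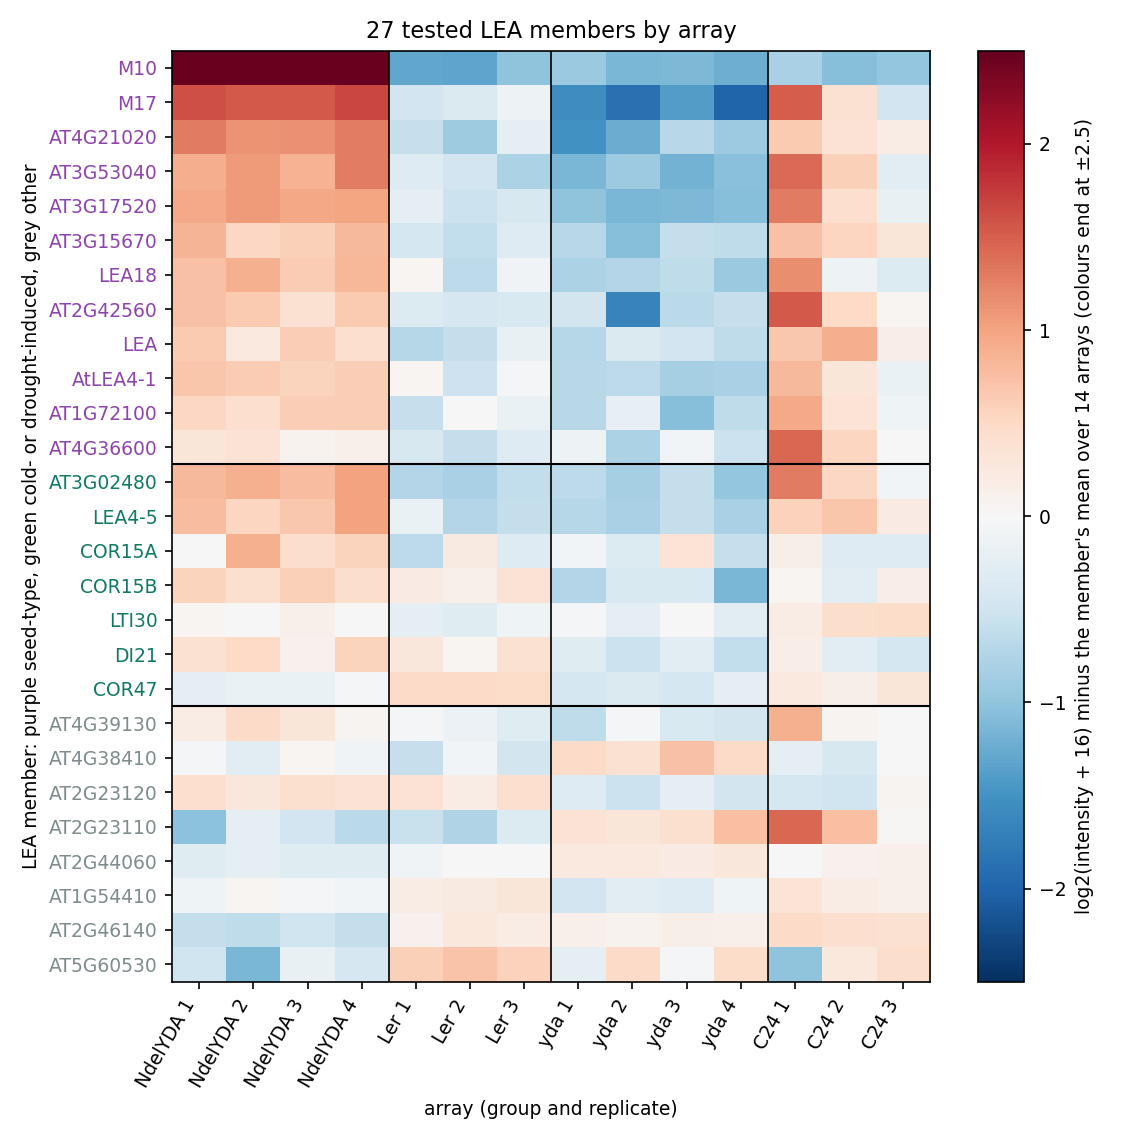
Deviation of each tested member on each array (colour, log2(intensity + 16) minus the member's mean over 14 arrays; colours end at ±2.5); rows are members by class, columns arrays by group. Seed-type rows are high in NdelYDA and, except for M10, in C24 replicate 1. They are low in yda and mostly below their mean in Ler.

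The control ecotypes themselves differed in this set. Limma called 15 of the 27 members in Ler against C24, where it called 37.2% of all tested probe sets. Of the 12 seed-type members 7 were lower in Ler and none higher, against 16.2% and 21% of all tested probe sets. AT4G21020 averaged 46.3 ± 14.4 in Ler and 104 ± 19.3 in C24 (SD, n = 3 each), and AT3G15670 averaged 164 ± 18 in Ler and 341 ± 53 in C24. Their log2 changes were -0.96 (adjusted p = 0.0025) and -0.98 (adjusted p = 5.6e-05). The number depended on the C24 arrays. It was 5 of 11 without C24 replicate 1, against 16.2% of all probe sets in that fit. Without C24 replicate 3, which leaves the C24 array with the high seed-type signal and 1 other, it was 11. The share of all probe sets is not given for that last fit, so its count is not set against a background.

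The mutants were therefore also set against the other control. These comparisons add the difference between the ecotypes, and they share the mutant arrays with the comparisons above. Against C24, 3 of the 12 tested seed-type members were higher in NdelYDA (M10, M17 and AT4G21020) and none lower, against 24.5% and 20.9% of all tested probe sets. M10 is counted here, and in the count that follows, as a description. The change of M17 was 1.12 (adjusted p = 0.0065) and that of AT4G21020 was 0.81 (adjusted p = 0.0042). Without C24 replicate 1 the number was 7 of 11, against 24.6% of all probe sets, with a median log2 change of 0.87. Against Ler, 4 of 12 were lower in yda and none higher, against 35.5% and 24.2%. They were M17 (-1.39), AT3G17520 (-0.70), AT4G21020 (-0.54) and AtLEA4-1 (-0.58). The counts of 3 and 4 in 12 are near the shares of all tested probe sets called in those directions. Without C24 replicate 1, whose loss leaves the changes from Ler as they are, 6 of the 11 then tested were lower in yda. The share over all probe sets in that fit is not given here. Over all 27 members each of these comparisons gave 12 calls, where 45.4% of all tested probe sets were called in NdelYDA against C24 and 59.7% in yda against Ler. Thus M17 and AT4G21020 were called in the same direction against both controls in each mutant. With the other control, the calls of 8 seed-type members were lost in NdelYDA, and those of 7 were lost in yda.

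**Figure D4:**
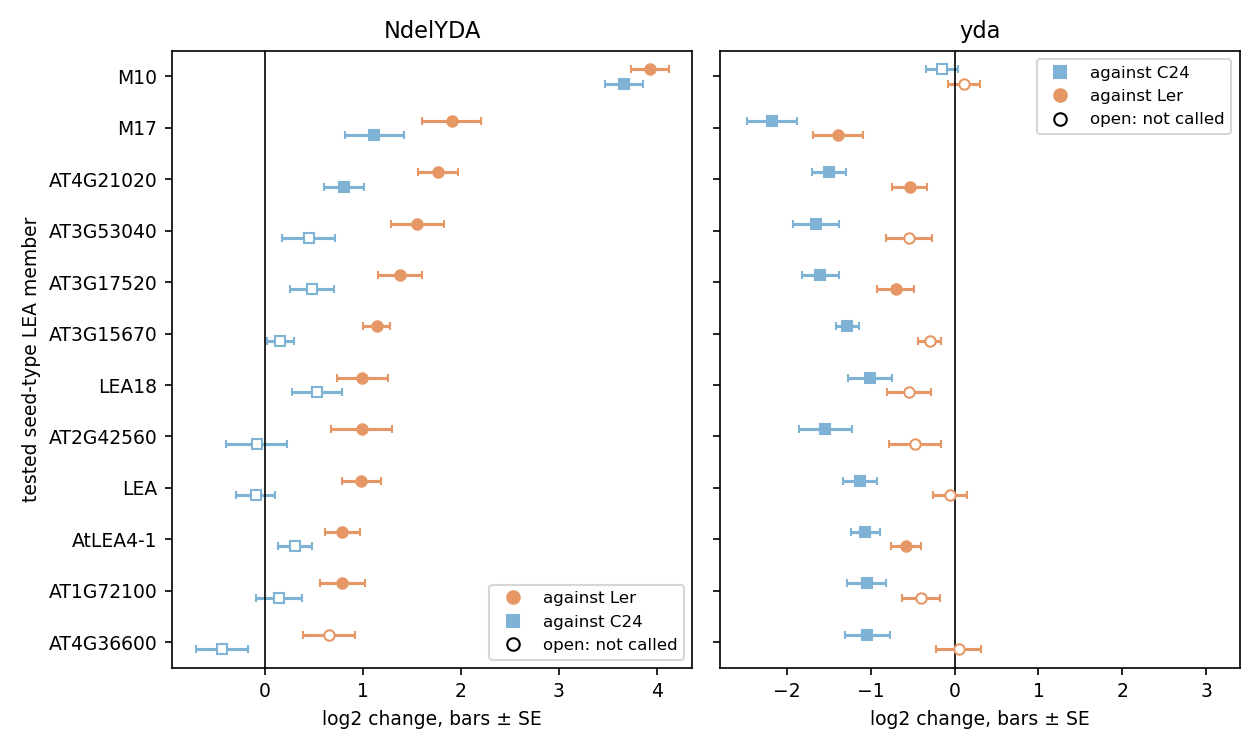
Log2 change (± SE) of the 12 tested seed-type members in NdelYDA (left) and yda (right), each against Ler (circles) and against C24 (squares); open points were not called. Against C24, 3 members are called higher in NdelYDA, and against Ler, 4 are called lower in yda. Both counts are near the shares of all tested probe sets (24.5% and 35.5%).

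The cold- or drought-induced members did not move as a single set. AT3G02480, a small abscisic acid-inducible LEA_4 gene, had 2197, 2314, 2143 and 2521 in NdelYDA, against 736, 698 and 799 in Ler. It had 782, 687, 813 and 625 in yda, against 3076, 1788 and 1175 in C24. No array overlapped between the groups compared, and C24 replicate 1 was again the highest C24 array. Its log2 change was 1.60 in NdelYDA (SE 0.21, adjusted p = 1.7e-05) and -1.35 in yda (SE 0.21, adjusted p = 7e-05). The change in yda was -0.99 without C24 replicate 1. With the other control both calls were lost, at 0.29 in NdelYDA against C24 (adjusted p = 0.26) and -0.04 in yda against Ler (adjusted p = 0.88). Without C24 replicate 1, AT3G02480 was called higher in NdelYDA than in C24 (0.65, adjusted p = 0.0012).

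LEA4-5, a LEA_1 gene induced by water deficit, was also higher in NdelYDA and lower in yda than its paired control. It had 220, 184, 204 and 260 in NdelYDA, against 106, 66.5 and 74.7 in Ler. It had 67.8, 62.9, 75.5 and 62.3 in yda, against 188, 207 and 144 in C24. Here the highest C24 array was replicate 2. The log2 change was 1.25 in NdelYDA (SE 0.16, adjusted p = 1.5e-05) and -1.22 in yda (SE 0.16, adjusted p = 1.4e-05), and -1.19 in yda without C24 replicate 1. Both calls were lost with the other control, at 0.26 in NdelYDA against C24 (adjusted p = 0.21) and -0.23 in yda against Ler (adjusted p = 0.24).

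COR47, an acidic dehydrin induced by cold, was lower in both mutants. It had 4357, 4576, 4615 and 5024 in NdelYDA, against 7211, 7188 and 7070 in Ler. It had 3781, 4040, 3804 and 4372 in yda, against 6140, 5681 and 6329 in C24. Neither pair of groups overlapped, and the log2 changes were -0.62 in NdelYDA (SE 0.062, adjusted p = 1e-06) and -0.60 in yda (SE 0.062, adjusted p = 1.4e-06). The difference between the mutant effects was -0.03 (SE 0.088, adjusted p = 0.84). With the other control both calls were made, at -0.38 in NdelYDA against C24 (adjusted p = 0.00012) and -0.84 in yda against Ler (adjusted p = 9.7e-09).

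The other cold-induced members changed less. LTI30, a dehydrin of cold-treated tissue, averaged 2465 ± 101 in NdelYDA and 2053 ± 143 in Ler, and 2171 ± 199 in yda and 3081 ± 323 in C24. Its log2 changes were 0.26 (adjusted p = 0.022) and -0.50 (adjusted p = 0.00013). Against C24 in place of Ler it was lower in NdelYDA (-0.32, adjusted p = 0.0053), so that rise rests on the Ler control. COR15A and COR15B encode cold-induced proteins of the chloroplast stroma. COR15B averaged 260 ± 18.1 in NdelYDA and 214 ± 19.6 in Ler (0.26, adjusted p = 0.26), and it fell in yda to 109 ± 29.4, against 176 ± 29.5 in C24 (-0.64, adjusted p = 0.0051). COR15A rose in NdelYDA to 120 ± 33.1, against 66.8 ± 25.9 in Ler (0.73, adjusted p = 0.039), with overlapping arrays, and averaged 71.9 ± 24.8 in yda and 70.3 ± 17.2 in C24. The COR15A call was lost in 6 alternatives (adjusted p between 0.058 and 0.19), with no filter and without NdelYDA replicate 2, 3 or 4 or Ler replicate 1 or 3, where the log2 change was 0.52 to 0.74, and also against C24 (0.64, adjusted p = 0.051). Without C24 replicate 1 the rise of COR15A in NdelYDA over C24 was called (0.80, adjusted p = 0.030). The LTI30 call in NdelYDA was lost without NdelYDA replicate 3 and without Ler replicate 1 or 2 (log2 change 0.22 to 0.25, adjusted p between 0.063 and 0.10). DI21, a drought-induced LEA_3 gene, was not called in NdelYDA (567 ± 74.9 against 509 ± 61.8 in Ler, log2 change 0.15, adjusted p = 0.48) or in yda (315 ± 40.4 against 381 ± 88 in C24, -0.25, adjusted p = 0.18).

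In total 4 of the 7 cold- or drought-induced members were higher and 1 lower in NdelYDA, against 15.4% and 16.6% of all tested probe sets. In yda 5 were lower and none higher, against 24.4% and 19.1%. Their median log2 changes were 0.26 and -0.60. All 7 passed the filter, and the yda counts were the same without C24 replicate 1.

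Among the 8 other members tested, none rose and 4 fell in NdelYDA, against 15.4% and 16.6% of all tested probe sets. In yda 2 rose and 3 fell, against 19.1% and 24.4%, which is near the background for 8 members. Without C24 replicate 1, 1 rose and 2 fell of the 7 then tested, against 22.9% of all probe sets called lower in that fit. AT2G46140, of the LEA_2 group that folds stably in water, had 276, 268, 296 and 274 in NdelYDA, against 461, 516 and 484 in Ler. It had 464, 449, 475 and 463 in yda, against 595, 575 and 557 in C24. Both mutants were below their controls with no overlap, with log2 changes of -0.77 in NdelYDA (SE 0.071, adjusted p = 3.9e-07) and -0.30 in yda (SE 0.071, adjusted p = 0.0024). Against Ler the yda call was lost (-0.07, adjusted p = 0.41). The related AT2G44060 had the opposite signs in the mutants. It averaged 3077 ± 86.2 in NdelYDA and 3675 ± 125 in Ler (-0.26, adjusted p = 0.00083), and 4456 ± 122 in yda and 3971 ± 162 in C24 (0.17, adjusted p = 0.013). The yda call was lost without C24 replicate 1 (0.13, adjusted p = 0.057) and in a fit of only yda and C24 (adjusted p = 0.065). With the other control both calls were made, at -0.37 in NdelYDA against C24 (adjusted p = 2.0e-05) and 0.28 in yda against Ler (adjusted p = 0.00017).

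AT1G54410, a short dehydrin known as HIRD11, was lower in both mutants. It averaged 4052 ± 183 in NdelYDA and 4930 ± 234 in Ler (-0.28, adjusted p = 0.0096, and 0.054 without Ler replicate 3), and 3411 ± 371 in yda and 4877 ± 349 in C24 (-0.52, adjusted p = 5e-05). AT1G54410 was also lower in NdelYDA than in C24 (-0.27, adjusted p = 0.010) and in yda than in Ler (-0.53, adjusted p = 1.8e-05). The dehydrin AT4G38410 was higher in yda, with 154, 142, 186 and 153, against 88.5, 76.2 and 106 in C24 (0.72, SE 0.15, adjusted p = 0.0012). The yda rise of AT4G38410 was also called against Ler (0.89, adjusted p = 0.00011). Its NdelYDA arrays overlapped those of Ler (98.6 ± 11.4 against 79.1 ± 18.3). Another dehydrin, AT4G39130, fell in yda to 46.9 ± 11.3, against 89.6 ± 38.4 in C24 (-0.71, adjusted p = 0.013), and was not called in NdelYDA (0.42, adjusted p = 0.15). The yda call was lost against Ler (-0.22, adjusted p = 0.39). Without C24 replicate 1, where it stood at 134, it was no longer tested, and it too had passed the filter only with the help of NdelYDA arrays. AT5G60530, a LEA-related gene in no named group, had 145, 87.6, 186 and 155 in NdelYDA, against 332, 357 and 327 in Ler (-1.19, SE 0.29, adjusted p = 0.0048). Against C24 the call in NdelYDA was lost (-0.46, adjusted p = 0.21), but it was made without C24 replicate 1 (-0.92, adjusted p = 0.0044). In yda it averaged 247 ± 64, against 217 ± 105 in C24, and was not called.

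The change in NdelYDA over Ler less the change in yda over C24 was tested as a contrast of its own. It was called for 20 of the 27 members, where 33.4% of all tested probe sets were called, with 15.8% below 0. It was above 0 for 12 of 12 tested seed-type members, against 17.6% of all tested probe sets, with a median of 2.48 on the log2 scale and -0.0001 over all of them. This count includes M10 (4.08, SE 0.27), which passed the filter only through its NdelYDA arrays. AT2G42560, AT3G53040, AT4G36600 and LEA also passed it only with the help of those arrays, so the count is a description. M17 differed by 4.08 (SE 0.43, adjusted p = 2.7e-06), AT4G21020 by 3.26 (SE 0.29, adjusted p = 5.5e-07), AT3G53040 by 3.21 and AT3G17520 by 2.98. The smallest seed-type difference was that of AT4G36600, at 1.69 (SE 0.38, adjusted p = 0.0025). Among cold- or drought-induced members 4 of 7 differed, led by AT3G02480 (2.95, adjusted p = 1.8e-06) and LEA4-5 (2.48, adjusted p = 7.9e-07). Among the others AT4G39130 was higher (1.13), and AT2G44060 (-0.42), AT2G46140 (-0.47) and AT5G60530 (-1.46) were lower. Without C24 replicate 1 all 11 seed-type members then tested were called above 0, against 17.6% of all probe sets in that fit. Their median was 2.32.

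By protein group, counts of calls were set beside 15.4% of all tested probe sets called higher and 16.6% lower in NdelYDA, and 19.1% higher and 24.4% lower in yda. All 3 LEA_1 members rose in NdelYDA and fell in yda. Of the 10 tested LEA_4 members, 8 rose and none fell in NdelYDA, and 9 fell and none rose in yda. The 6 tested dehydrins were mixed, with 2 higher and 2 lower in NdelYDA, and 1 higher and 5 lower in yda. Both tested LEA_2 members fell in NdelYDA. In LEA_4, AT2G42560, AT3G53040 and AT4G36600 passed the filter only with the help of NdelYDA arrays, as did the dehydrins LEA and AT4G39130. The protein groups hold the same members as the classes above, so their counts are a description and add no support of their own. The 2 measured seed maturation proteins (SMP group) did not pass the filter, and neither EM1 nor EM6, the LEA_5 pair of dry seeds, is analysed here.

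Members that are direct neighbours among the protein-coding genes of the gene table could be compared for 3 pairs. M17 and M10 are adjacent, and both were higher in NdelYDA, but only M17 was high in any array of the other groups. COR15B and COR15A differed in calls, as given above. AT2G23110 and AT2G23120, of the PvLEA18 group, were not called in either mutant, although AT2G23110 was lower (-1.29, adjusted p = 0.0017) and AT2G23120 higher (0.61, adjusted p = 0.00085) in Ler than in C24. The nearest measured genes around the M10 pair were AT2G41250 on one side and AT2G41330 and AT2G41380 on the other. AT2G41250 averaged 291 ± 63.9 in NdelYDA and 273 ± 8.21 in Ler (0.06, adjusted p = 0.81), and AT2G41330 averaged 300 ± 47.3 in NdelYDA and 330 ± 26.6 in Ler (-0.14, adjusted p = 0.54). AT2G41380 was lower in NdelYDA, at 758 ± 26.5 against 1178 ± 95.1 in Ler (-0.62, adjusted p = 1.9e-05).

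Of the 9 measured members that did not pass the filter, the 4 seed-type ones had intensities of 0.8 to 80.2 over all arrays and the 5 others 0.8 to 54.3. AT5G44310, a LEA_4 gene, had 66.9, 64.7, 68.9 and 62.4 in NdelYDA, against 17.2, 16.9 and 38.5 in Ler. It had 4.8, 2.0, 3.4 and 5.6 in yda, against 80.2, 24.2 and 24.6 in C24. All of these values are near or below the 30th percentile, where their order is not reliable. In the fit with no filter its changes were 1.06 in NdelYDA (adjusted p = 0.008) and -1.44 in yda (adjusted p = 0.00067). It was the only member below the filter that this fit called in a mutant against its own control. AT3G22490, of the SMP group, was at 50.8 in C24 replicate 1 and at 15.7 or below on every other array.

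Other seed genes were read beside the family. Of 17 listed storage and oil body genes, 4 were measured and tested, and of these 2 were higher and none lower in NdelYDA, against 15.4% and 16.6% of all tested probe sets. In yda 3 were lower and none higher, against 24.4% and 19.1%. AT2G28490, a vicilin-like storage protein gene, had 1880, 2044, 1838 and 1836 in NdelYDA, against 520, 489 and 410 in Ler. It had 246, 238, 240 and 228 in yda, against 2720, 960 and 506 in C24. Its groups did not overlap, and the order of its C24 arrays was that of M17. Its log2 changes were 1.98 in NdelYDA (adjusted p = 0.00026) and -2.14 in yda (adjusted p = 9.3e-05), or -1.49 in yda without C24 replicate 1. Against C24 the NdelYDA call was lost (0.78, adjusted p = 0.073), but it was made without C24 replicate 1 (1.42, adjusted p = 5.9e-06). The oleosin gene AT3G01570 averaged 842 ± 118 in NdelYDA and 286 ± 27.3 in Ler (1.50), and 174 ± 10.4 in yda and 489 ± 188 in C24 (-1.34). With the other control both calls were made, at 0.83 in NdelYDA against C24 (adjusted p = 0.0020) and -0.67 in yda against Ler (adjusted p = 0.0060). The vicilin-like PAP85 fell in yda (-1.32, adjusted p = 0.00093, and -0.82 without C24 replicate 1) and was not called in NdelYDA (-0.20, adjusted p = 0.64), and the oleosin OLEO3 was not called in either.

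The seed bZIP factor EEL was the only measured gene of 10 listed seed maturation regulators, and it was not called in NdelYDA (-0.27, adjusted p = 0.24) or yda (0.12, adjusted p = 0.59). None of 13 listed abscisic acid signalling genes had a probe set in the table used. HIS1-3, a linker histone induced by drought and the only measured gene of 22 listed for cold and drought, averaged 1564 ± 65.4 in NdelYDA and 746 ± 121 in Ler (1.06, adjusted p = 4.1e-05). It averaged 271 ± 13.7 in yda and 584 ± 165 in C24 (-1.02, adjusted p = 4.6e-05). With the other control both calls were made, at 1.44 in NdelYDA against C24 (adjusted p = 1.1e-06) and -1.39 in yda against Ler (adjusted p = 7.6e-07).

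Per array, the median deviation of the 12 tested seed-type members from their own means ran from 0.63 to 0.82 in NdelYDA, against -0.56 to -0.27 in Ler. It ran from -0.98 to -0.75 in yda, and was 1.06, 0.40 and -0.14 in C24 replicates 1, 2 and 3. C24 replicate 1 was thus above every NdelYDA array, and C24 replicate 3 was above every Ler array. The 4 storage and oil body genes ran from 0.42 to 0.72 in NdelYDA, -0.41 to -0.25 in Ler and -0.97 to -0.77 in yda, and were 1.20, 0.32 and -0.33 in C24.

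The 4 tested guard cell and stomatal lineage genes (SPCH, FAMA, CHX20 and AT1G22690) were all called lower in NdelYDA than in Ler and higher in yda than in C24, with medians of -1.20 to -0.93 in NdelYDA, 0.70 to 0.78 in Ler and 0.68 to 0.92 in yda, and -0.84, -0.39 and -0.07 in C24 replicates 1, 2 and 3. SPCH and CHX20 passed the filter only through Ler and yda arrays, so their tests are a description, and both enter these medians. On the NdelYDA and C24 arrays SPCH was at 50.9 or below and CHX20 at 38.3 or below, all under the 30th percentile. With the other control, FAMA and AT1G22690 were called in the same directions. SPCH (0.18, adjusted p = 0.57) and CHX20 (0.38, adjusted p = 0.33) were not called in NdelYDA against C24. Both groups are near background there, so the missing calls decide nothing. In yda against Ler, SPCH was not called (-0.32, adjusted p = 0.26) and CHX20 was lower (-0.79, adjusted p = 0.036). MUTE was measured but below the filter, at 4.4 to 5.0 in NdelYDA and 5.4 to 39.6 in Ler, and at 24.9 to 74 in yda and 4.1 to 11.6 in C24. The root hair expansin EXPA7, the 1 root marker measured, was 87.3 ± 10 in NdelYDA and 154 ± 29.8 in Ler (-0.71, adjusted p = 0.0047), and 160 ± 23.6 in yda and 124 ± 34.7 in C24 (0.35, adjusted p = 0.12). The part that the differences in storage, stomatal and root marker genes have in the LEA changes was not tested.

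**Figure D5:**
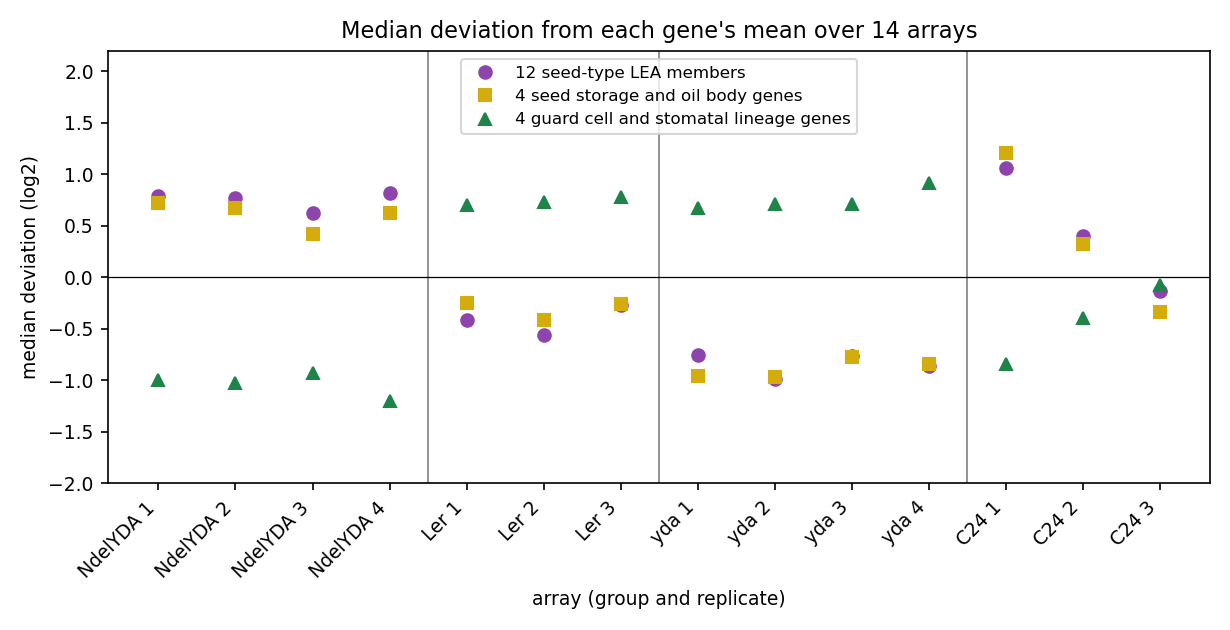
Median deviation (log2) from each gene's own mean over 14 arrays, per array, for the 12 tested seed-type LEA members (circles), 4 seed storage and oil body genes (squares) and 4 guard cell and stomatal lineage genes (triangles). The seed sets lie above 0 in NdelYDA and below 0 in Ler and yda, and differ between the C24 arrays from 1.06 to -0.14 for the LEA members.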

How the data were processed

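The deposited values are probe set intensities of 14 arrays on a linear scale, from the series' value table. With 2% of probe sets trimmed at each end, every array had a mean of 500. The software behind them is not given in the sources used here. Of 13513 probe sets with a single gene, 13436 were named through Entrez identifiers from RefSeq's gene table for TAIR10.1, which served for names and gene order only. No 2 arrays were identical.

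The 64 control probe sets were left out. Testing was limited to the 17210 probe sets that passed the 30th percentile of their array 3 or more times among 14. Values were tested as log2(intensity + 16) in a single limma 3.58.1 model (R 4.3.3) with 4 group means and an intensity trend, with two-sided p-values adjusted by Benjamini-Hochberg across all 17210. An adjusted p under 0.05 was a call. The fit was tested on simulated data.

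The members, classes and lists were chosen with earlier results of these data known, and the classes come from memory of published work. Every member called in a mutant comparison or in the difference is named, with M10 and M17. No sequence was available to show. Alternatives covered pseudocount, filter, scaling, trend, arrays in the fit, replicate block, control ecotype and each array left out.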

Additional observations from a re-analysis of the deposited data

Results flagged for a closer look

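The effects of NdelYDA (against Ler) and of yda (against C24) differed by the contrast of the 2 effects for 20 members, NdelYDA effect minus yda effect on the log2 scale. Among seed-type members the differences were 4.08 for M10, 4.08 for M17, 3.26 for AT4G21020, 3.21 for AT3G53040, 2.98 for AT3G17520 and 2.53 for AT2G42560. They were 2.42 for AT3G15670, 2.12 for LEA, 2.00 for LEA18, 1.86 for AtLEA4-1, 1.84 for AT1G72100 and 1.69 for AT4G36600. Among cold- or drought-induced members they were 2.95 for AT3G02480, 2.48 for LEA4-5, 0.90 for COR15B and 0.76 for LTI30. Among the others they were 1.13 for AT4G39130, -0.42 for AT2G44060, -0.47 for AT2G46140 and -1.46 for AT5G60530. C24 enters each of these differences, and its replicate 1 was the highest C24 array for 11 of the 12 seed-type members.

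Single arrays stood apart from the rest of their group by Dixon's criterion in 3 cases, where chance alone would mark about 1 group in 20. Over the 36 measured members in NdelYDA and in yda, 3 cases are about as many as chance would give. AT2G44060 was 3205 in NdelYDA replicate 2, against 3020 to 3042 in the other 3 arrays. AT2G03850, a low-signal member that was not tested, was 4.6 in NdelYDA replicate 4, against 7.5 to 7.8. AT2G23110 was 159 in yda replicate 4, against 113 to 120. Groups of 3 arrays, C24 among them, were not examined this way.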

How the results depend on the processing

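Of the LEA members tested, 20 were called in NdelYDA against Ler, 21 in yda against C24, 15 in Ler against C24 and 20 for the difference of effects. With each array left out in turn these ran from 16 to 21, 18 to 22, 12 to 19 and 18 to 21, and for seed-type members alone from 9 to 12, 10 to 11, 5 to 11 and 11 to 12. With a filter at the array median only 17 members were tested, and 13 were called in yda, 9 in Ler against C24 and 13 for the difference. Of the 7 seed-type members then tested, 7 were called in NdelYDA, 6 in yda, 3 in Ler against C24 and 7 for the difference. In NdelYDA against Ler that fit called 4719 of all probe sets, where the reported fit called 5503. Shares of all tested probe sets are not given for the alternatives in this section. Their counts show only how far the calls moved and are not set against a background. With C24 in place of Ler, 12 members were called in NdelYDA (3 seed-type), and 3 changes reversed, for AT2G42560 (-0.081), LEA (-0.091) and LTI30 (-0.32). With Ler in place of C24, 12 were called in yda (4 seed-type), and AT4G36600 (0.050) and LTI30 (0.078) reversed. The counts by class were added after the data were seen. Under the other planned settings (pseudocounts of 1 and 64, no filter, both other scalings, no trend, only the groups compared) the member counts stayed within 1.5 times. Among single calls, DI21 in Ler against C24 was lost most often, in 13 alternatives. The lowest-mean probe set was not run, since no member has several, and the difference of effects uses all groups, so a fit of only the groups compared is the fit reported.

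Replicate numbers are shared between groups, but deviations of same-numbered arrays correlated between -0.16 and 0.16 in the 3 comparisons, and in none of them was every pair above 0.1, so the numbers do not pair the samples. With the replicate block 20 members were called in NdelYDA, 21 in yda, 15 in Ler against C24 and 20 for the difference. The number of arrays limits precision, and members near background (M10 outside NdelYDA, AT5G44310) have no reliable order there.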
